A study of Mus musculus with 9 samples.

Results

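p53 is a transcription factor that is kept scarce in unstressed cells by the ubiquitin ligase Mdm2, and that accumulates when DNA is damaged or growth signals are abnormal. It then binds a DNA element made of a pair of decamer half-sites and drives genes that halt the cell cycle, repair DNA, limit growth signalling or kill the cell, and it also drives *Mdm2*, which closes the loop. p53 and 9 of its best-known target genes, 10 genes in all (*Trp53*, *Cdkn1a*, *Mdm2*, *Ccng1*, *Trp53inp1*, *Sesn1*, *Sesn2*, *Zmat3*, *Phlda3* and *Perp*), were looked up by symbol among 35557 probe sets, of which the 23410 that list at least 1 gene were tested. A gene counted as measured where a probe set lists its symbol alone. This was so for 8 of the 10 genes, each with 1 probe set. No probe set is listed to *Trp53* in the annotation used here, and the probe set of *Cdkn1a*, the gene of the cell-cycle inhibitor p21, also lists a second symbol, so that neither p53's own transcript nor that of p21 was analysed here. It follows that what is described is the transcript level of p53 target genes, and not the level or activity of p53.

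The cells were mouse 3T3 fibroblasts, an immortal line grown from embryonic fibroblasts, and every line carried a small hairpin RNA (shRNA). Trap-80 knock-down cells, a clonal line in which an shRNA targets Trap-80 (gene *Med17*), a subunit of the Mediator complex that links transcription factors to RNA polymerase II, were hybridised after 1 h with 5 ng/ml of the cytokine TNF-α. Cells that express an irrelevant shRNA, here called wild type, were hybridised after the same TNF-α treatment and without stimulation. Each of the 3 groups had 3 arrays, numbered 1 to 3, labelled as biological replicates. Unstimulated knock-down cells are not analysed here, so that a difference between the lines at rest cannot be told apart from a difference in their response, and features of the clone cannot be told apart from loss of Trap-80. 3T3 lines often arise with a lesion in p53 or in its activator p19Arf, and the sources used here do not give the p53 status of this line.

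All levels are log2 signals from robust multi-array averaging (RMA), in which a difference of 1 is a doubling. Differences are taken between samples of the same probe set. Probe sets also differ in how brightly they bind, so that a level set beside those of other probe sets is only a rough guide. Arrays of the same group correlated at 0.993 to 0.997 and array medians lay between 4.95 and 5.09. *Med17* read 6.35, 6.22 and 6.17 on the knock-down arrays, against 7.98, 7.93 and 7.77 on wild-type TNF-α arrays and 8.10, 8.09 and 7.89 on unstimulated ones. Its knock-down difference of -1.64 (standard error 0.09, limma adjusted p = 4.77e-05) left 32% of the wild-type signal, with no overlap between the lines, and an exact two-sided permutation test gave p = 0.1, the smallest that 3 against 3 arrays allow. Fibroblast markers averaged 9.21 to 9.42 on knock-down arrays, 9.16 to 9.39 on wild-type TNF-α arrays and 9.17 to 9.46 on unstimulated ones, whereas epithelial, leukocyte and endothelial markers averaged 3.15 to 4.59 over all groups. Within those lists, epithelial *Krt8* (group means of 5.44 to 6.13) and leukocyte *Cd68* (5.35 to 5.64) lay above 5.02, the median of all probe sets tested. Of the 9 fibroblast markers, *Fap* was near the floor in every group (means of 2.36 to 2.48), and in knock-down against wild-type TNF-α cells *Pdgfra* fell (-1.89) while *Thy1* (2.09) and *S100a4* (0.55) rose, so that the lines differ in other ways too. The part of these differences in the results below was not tested.

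Promoters, taken as 250 bases before to 50 bases after a RefSeq transcription start (GRCm38.p6), were at hand for 7 of the 10 genes, and *Cdkn1a* and *Sesn1* have a pair each, which makes 9 promoters. The p53 half-site, a 10-base motif that reads the same on both strands, had an exact match in 5 of the 9, against 8.36% of 32851 mouse promoters of the same length. These were the promoters of *Trp53*, *Cdkn1a* (first start, with matches at -73 and -51), *Mdm2*, *Ccng1* and *Sesn1* (second start). The κB decamer, which NF-κB binds, matched 1 of the 9, that of *Trp53*, against 8.46% of all promoters. The letters TATAAA, on either strand, also matched 1 of the 9 (*Trp53*), against 13.6%, and GGGCGG, on either strand, matched 6 of the 9, against 35.7%. Among these matches the only overlap was between neighbouring GGGCGG matches of *Sesn1*. The promoters of 4 measured targets are shown, of which 3 carry a half-site, in capitals. That of *Sesn2* carries none, and is shown because *Sesn2* had the largest knock-down difference of the measured targets. Whether a half-site goes with a difference was not tested. The 4 promoters lie at chr10:117710709-117711008 (*Mdm2*, minus strand), chr11:40755237-40755536 (*Ccng1*, minus strand), chr10:41887189-41887488 (*Sesn1*, second start, plus strand) and chr4:132510407-132510706 (*Sesn2*, minus strand), and are written 5′ to 3′ on the gene's strand.
Mdm2: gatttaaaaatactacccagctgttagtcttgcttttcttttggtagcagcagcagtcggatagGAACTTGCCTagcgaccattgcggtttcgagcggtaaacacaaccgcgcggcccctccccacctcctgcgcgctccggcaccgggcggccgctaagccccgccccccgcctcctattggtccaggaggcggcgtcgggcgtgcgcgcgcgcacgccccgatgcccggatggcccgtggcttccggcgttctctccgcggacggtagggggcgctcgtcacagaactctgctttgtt
Ccng1: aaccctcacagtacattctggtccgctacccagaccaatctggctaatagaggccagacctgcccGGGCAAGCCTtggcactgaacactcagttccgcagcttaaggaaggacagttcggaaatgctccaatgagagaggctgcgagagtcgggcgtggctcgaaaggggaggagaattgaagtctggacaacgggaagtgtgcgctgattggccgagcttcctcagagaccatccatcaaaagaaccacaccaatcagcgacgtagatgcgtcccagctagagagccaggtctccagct
Sesn1: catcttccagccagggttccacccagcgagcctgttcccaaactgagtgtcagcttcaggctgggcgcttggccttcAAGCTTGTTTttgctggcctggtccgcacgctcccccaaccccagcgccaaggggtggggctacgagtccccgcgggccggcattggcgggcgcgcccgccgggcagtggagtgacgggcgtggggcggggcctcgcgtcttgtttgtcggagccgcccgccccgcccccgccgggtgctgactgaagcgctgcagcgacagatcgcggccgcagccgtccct
Sesn2: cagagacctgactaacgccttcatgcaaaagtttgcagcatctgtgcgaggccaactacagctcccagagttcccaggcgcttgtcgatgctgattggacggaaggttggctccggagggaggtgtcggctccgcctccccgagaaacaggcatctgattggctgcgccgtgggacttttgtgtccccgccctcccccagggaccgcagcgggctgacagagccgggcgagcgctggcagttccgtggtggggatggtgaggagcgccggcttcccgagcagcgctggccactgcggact
The half-site began at -186 from the start in *Mdm2*, at -185 in *Ccng1* and at -173 in *Sesn1*. A match is a description of letters and not a binding site, and p53 elements also lie outside such windows, as in the first intron of *Mdm2*.

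The first question was whether the targets differed between Trap-80 knock-down and wild-type cells, both with TNF-α. None of the 8 measured targets passed the threshold in limma (adjusted p under 0.05 over all probe sets tested), where 5.96% of all probe sets did. At an unadjusted p under 0.05 there were 3 of 8 (17.4% of all probe sets), with *Sesn2* and *Phlda3* higher and *Perp* lower, and the same 3 were those whose arrays did not overlap between the lines (20.9% of all probe sets). Differences ran from -0.53 (*Perp*) to 0.68 (*Sesn2*), with a median of 0.05 beside -0.02 over all probe sets. The next question was the response of wild-type cells to 1 h of TNF-α. Again 0 of 8 were called, where 0.115% of all probe sets were, and 1 of 8 (*Phlda3*, lower) had an unadjusted p under 0.05 (7.1% of all probe sets). With so few probe sets called, 0 of 8 does not show that the targets did not respond. Differences ran from -0.21 (*Zmat3*) to 0.11 (*Mdm2*), with a median of -0.11. Last, knock-down cells with TNF-α were set against unstimulated wild-type cells, a comparison that shares its arrays with both others. Here too 0 of 8 were called (8.25% of all probe sets), and 3 of 8 had an unadjusted p under 0.05 (20.5%), with *Mdm2* and *Sesn2* higher and *Perp* lower.

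**Figure D1:**
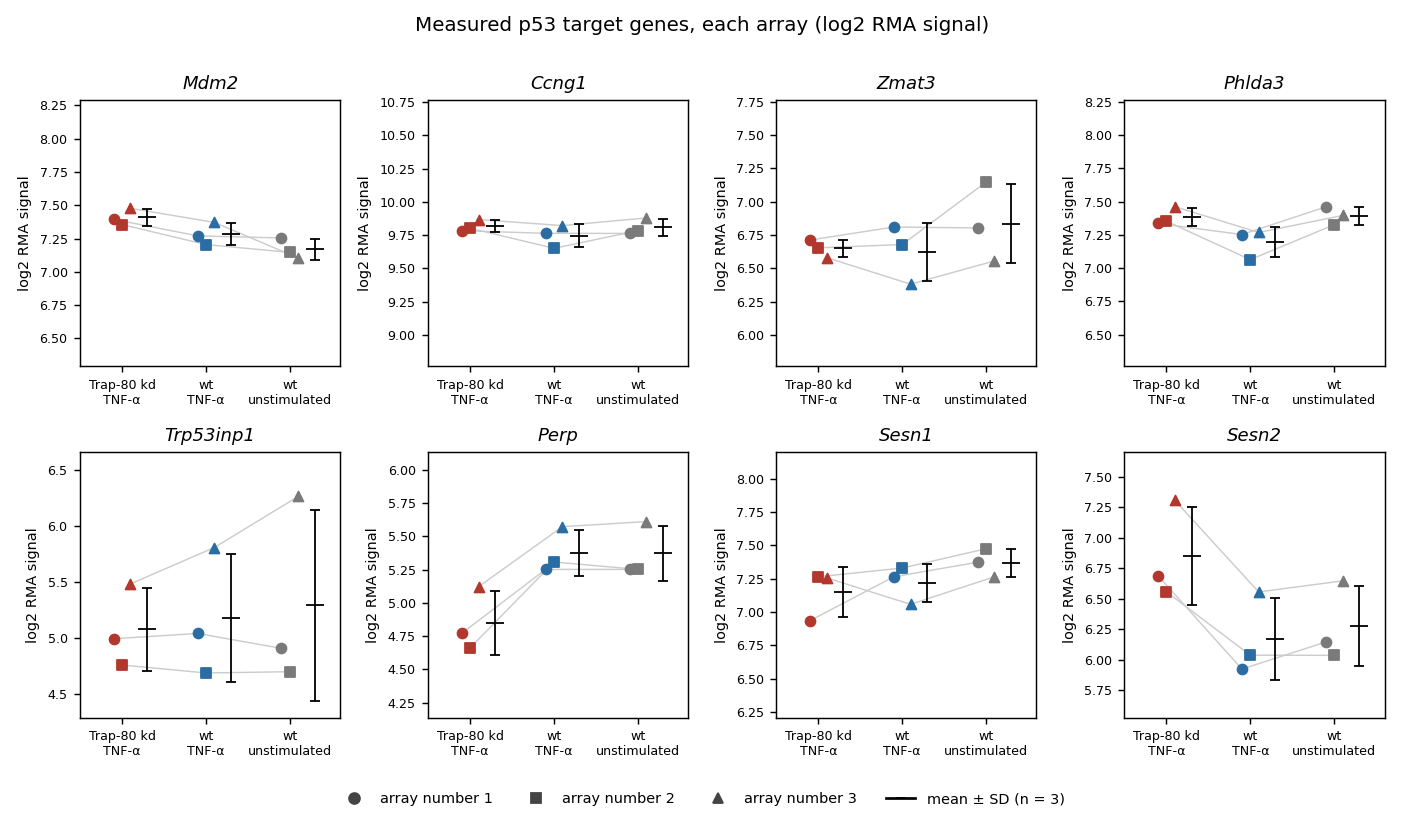
Log2 RMA signal (vertical axis, a window of at least 2 log2 units per gene) of the 8 measured p53 targets on each of the 9 arrays, by group from left to right (Trap-80 knock-down with TNF-α, wild type with TNF-α, wild type unstimulated). Symbols give the array number, grey lines join arrays of the same number, and black bars are the mean ± SD of 3 arrays. For Perp, Phlda3 and Sesn2 the 3 knock-down arrays do not overlap with the 3 wild-type TNF-α arrays. They lie at 4.66 to 5.12 against 5.25 to 5.57 for Perp and at 7.34 to 7.46 against 7.06 to 7.27 for Phlda3. For Sesn2 they lie at 6.56 to 7.31 against 5.92 to 6.55, where the nearest arrays all but touch (6.556 against 6.554).

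*Mdm2*, the ligase that ubiquitinates p53 and is itself a p53 target, read 7.39, 7.36 and 7.48 on knock-down arrays, 7.27, 7.20 and 7.37 on wild-type TNF-α arrays and 7.25, 7.15 and 7.10 on unstimulated ones. The knock-down arrays lay above all unstimulated arrays, while one wild-type TNF-α array reached into their range. The difference of knock-down cells with TNF-α from unstimulated wild-type cells was 0.24 (standard error 0.08, 95% interval 0.07 to 0.41, adjusted p = 0.094), or 1.18-fold. The knock-down difference was 0.13 (95% interval -0.04 to 0.30) and the TNF-α response 0.11 (-0.06 to 0.28). None of these differences passed the threshold.

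*Ccng1* encodes cyclin G1, a p53 target that feeds back on Mdm2 through protein phosphatase 2A. It read 9.78, 9.80 and 9.87 on knock-down arrays, 9.76, 9.65 and 9.82 on wild-type TNF-α arrays and 9.76, 9.78 and 9.88 on unstimulated ones. The 3 groups overlapped throughout. The knock-down difference was 0.07 (95% interval -0.09 to 0.23) and the TNF-α response -0.06 (-0.23 to 0.10), and knock-down cells with TNF-α differed from unstimulated wild-type cells by 0.01 (-0.15 to 0.17). These were the narrowest intervals of the 8 targets.

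*Zmat3*, an RNA-binding zinc finger protein, read 6.71, 6.65 and 6.58 on knock-down arrays, 6.81, 6.68 and 6.38 on wild-type TNF-α arrays and 6.80, 7.15 and 6.56 on unstimulated ones. The groups overlapped, and the unstimulated array numbered 2 was the highest of the 9. Its knock-down difference was 0.03 (95% interval -0.32 to 0.37), its TNF-α response -0.21 (-0.56 to 0.14).

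*Phlda3*, whose protein holds back the kinase Akt, read 7.34, 7.35 and 7.46 on knock-down arrays, 7.25, 7.06 and 7.27 on wild-type TNF-α arrays and 7.46, 7.33 and 7.40 on unstimulated ones. The wild-type TNF-α arrays were thus the lowest 3 of the 9, overlapping with neither other group, although the gap to the nearest unstimulated array was small (7.27 against 7.33). Its TNF-α response was -0.20 (standard error 0.08, adjusted p = 0.69) and its knock-down difference 0.19 (standard error 0.08, adjusted p = 0.26). Knock-down cells with TNF-α and unstimulated wild-type cells differed by -0.01 (95% interval -0.19 to 0.17).

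*Trp53inp1*, a stress protein that promotes p53-dependent cell death and autophagy, varied more between arrays of the same wild-type group than any other of the 8 targets. It read 5.00, 4.76 and 5.49 on knock-down arrays, 5.04, 4.69 and 5.81 on wild-type TNF-α arrays and 4.91, 4.70 and 6.27 on unstimulated ones. In each group the array numbered 3 was the highest and that numbered 2 the lowest, and the SD within a group (0.37 in knock-down, 0.57 in wild-type TNF-α and 0.85 in unstimulated cells) exceeded every difference between groups (-0.21 to -0.10). The standard error of each difference was 0.42, so that the 95% interval of the knock-down difference ran from -1.04 to 0.84. That interval includes a halving.

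*Perp* encodes a membrane protein of desmosomes that takes part in p53-dependent apoptosis. It read 4.77, 4.66 and 5.12 on knock-down arrays, 5.25, 5.31 and 5.57 on wild-type TNF-α arrays and 5.25, 5.25 and 5.61 on unstimulated ones. Every knock-down array was below every wild-type array, with or without TNF-α. The knock-down difference was -0.53 (standard error 0.15, 95% interval -0.86 to -0.19, adjusted p = 0.081), or 1.44-fold lower, and the difference from unstimulated wild-type cells was -0.52 (adjusted p = 0.068). The TNF-α response of wild-type cells was 0.01 (95% interval -0.33 to 0.34). *Perp* was called where the array number was a block in the model, at adjusted p = 0.00347 against wild-type TNF-α cells and 0.00298 against unstimulated ones, and same-numbered arrays gave knock-down differences of -0.48, -0.64 and -0.45. It was also called where probe sets below the median mean signal were left out (adjusted p = 0.047 and 0.0398, where 13.5% and 18.3% of the probe sets kept were called) and where knock-down array 3 was left out (differences of -0.66 and -0.65, adjusted p = 0.0466 and 0.0376, where 3.58% and 5.47% of all probe sets were called). *Perp* was not called with all probe sets tested (adjusted p = 0.161 and 0.124) or with only the 6 arrays compared (0.117 and 0.121). Nor was it called with median centring (0.0895 and 0.0521) or a trended variance prior (0.0838 and 0.071). With 1 array left out its adjusted p reached 0.237 and 0.202. Its signal was close to 5.02, the median of the means over all probe sets tested.

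The sestrins *Sesn1* and *Sesn2* are stress proteins that restrain the growth kinase mTORC1 and oxidative damage. They are both p53 targets, and *Sesn2* is also driven by Atf4, as part of the response to amino acid shortage and to misfolded proteins, and by Nrf2. *Sesn2* read 6.69, 6.56 and 7.31 on knock-down arrays, 5.92, 6.04 and 6.55 on wild-type TNF-α arrays and 6.14, 6.03 and 6.65 on unstimulated ones. The lowest knock-down array was barely above the highest wild-type TNF-α array (6.556 against 6.554) and below the unstimulated array numbered 3. Its knock-down difference of 0.68, or 1.60-fold (standard error 0.24, 95% interval 0.13 to 1.22), and its difference from unstimulated wild-type cells of 0.58 did not pass the threshold (adjusted p = 0.17 and 0.22). With the array number as a block both did (adjusted p = 0.00178 and 0.00302), and the same-numbered knock-down differences were 0.77, 0.52 and 0.75. The TNF-α response was -0.10 (95% interval -0.65 to 0.44). *Sesn1* read 6.94, 7.26 and 7.26 on knock-down arrays, 7.26, 7.33 and 7.06 on wild-type TNF-α arrays and 7.37, 7.48 and 7.26 on unstimulated ones, so that the groups overlapped. Its knock-down difference was -0.07 (95% interval -0.32 to 0.19), and its difference from unstimulated wild-type cells -0.22 (-0.48 to 0.04).

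**Figure D2:**
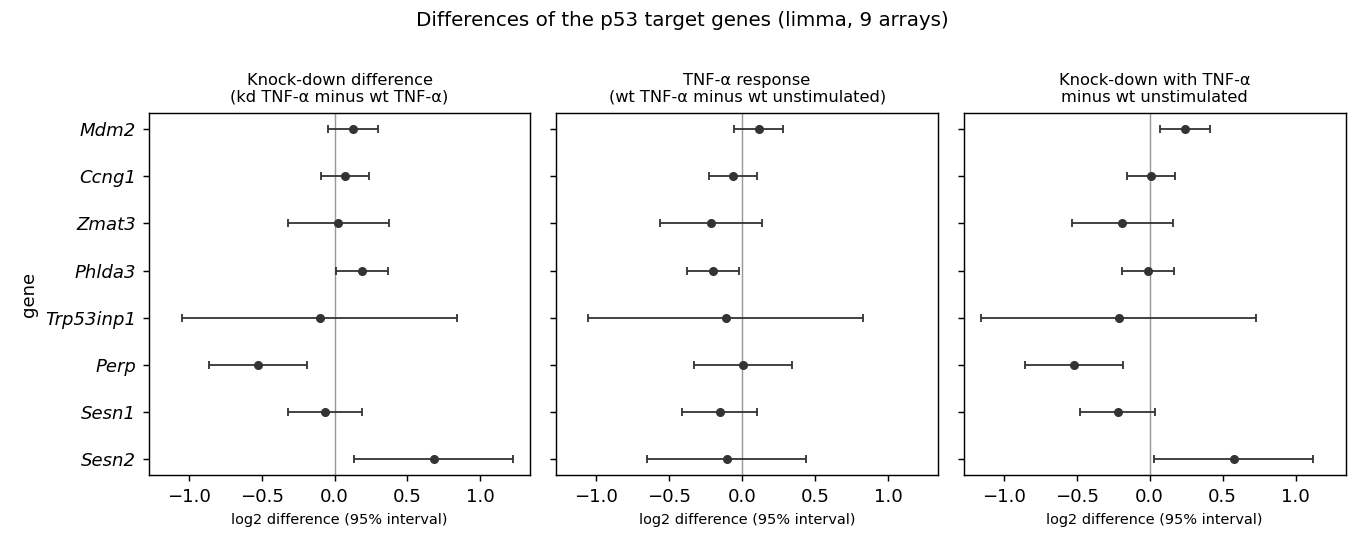
Log2 differences (horizontal axis) of the 8 measured p53 targets with 95% intervals from 1 limma model of 9 arrays, for knock-down against wild-type cells with TNF-α (left), wild-type cells with TNF-α against unstimulated (middle) and knock-down cells with TNF-α against unstimulated wild type (right). The intervals of Sesn2 (0.13 to 1.22), Perp (-0.86 to -0.19) and Phlda3 (around 0.19) leave out 0 on the left, and that of Trp53inp1 is the widest in every panel.

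With the array number as a block, then, 2 of the 8 targets were called in either knock-down comparison (*Sesn2* higher, *Perp* lower), where 9% of all probe sets were called against wild-type TNF-α cells and 12.1% against unstimulated ones, and 0 of 8 for TNF-α (0.235%). The numbers moved with the signal of the targets. The arrays numbered 3 were the highest of all 3 groups for 4 of the 8 (*Ccng1*, *Trp53inp1*, *Sesn2* and *Perp*), which held for 10% of all probe sets, and the lowest for 1 (*Zmat3*, 7.77% of all probe sets). The sources used here do not say what the number marks. Pairing by number was taken up from these same values and is uncertain, and every call with the block depends on it. Without the 3 arrays numbered 3, an alternative chosen after seeing the data, *Sesn2* differed by 0.64 (adjusted p = 0.023) and *Perp* by -0.56 (adjusted p = 0.0208) between knock-down and wild-type TNF-α cells, and 2 of 8 were called, where 4.66% of all probe sets were. Against unstimulated cells the same alternative gave 0.53 (adjusted p = 0.0282) and -0.53 (adjusted p = 0.0172), and again 2 of 8 were called (7.08% of all probe sets).

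The rest of the pathway was described through lists of genes by role, 105 of whose 117 genes were measured. They run from regulators above p53 to target genes and the cell-cycle genes that p53 represses through p21. The lists were chosen with earlier results of these data known, so counts from them are descriptions and not independent support. Between knock-down and wild-type TNF-α cells, 9 rose and 3 fell, or 11.4% of the 105, where 5.96% of all probe sets were called. With the block, 17 rose and 7 fell (9% of all probe sets were called). For wild-type TNF-α cells against unstimulated ones 0 of 105 were called, where 0.115% of all probe sets were. At an unadjusted p under 0.05 there were 11 (6 higher and 5 lower, where 7.1% of all probe sets passed). With the block 3 rose, where 0.235% of all probe sets were called. Knock-down cells with TNF-α against unstimulated wild-type cells gave 10 that rose and 6 that fell (15.2% of the 105, where 8.25% of all probe sets were called). With the block, 17 rose and 10 fell, where 12.1% of all probe sets were called. Most of the 105 genes were brighter than the median probe set. In a fit without probe sets below the median mean signal, 13.5% were called against wild-type TNF-α cells and 18.3% against unstimulated ones. The shares of 11.4% and 15.2% are therefore not read as an excess. The median differences of the 105 were 0.045, -0.07 and 0.0032 in these 3 comparisons, close to the -0.02, -0.02 and -0.01 over all probe sets.

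**Figure D3:**
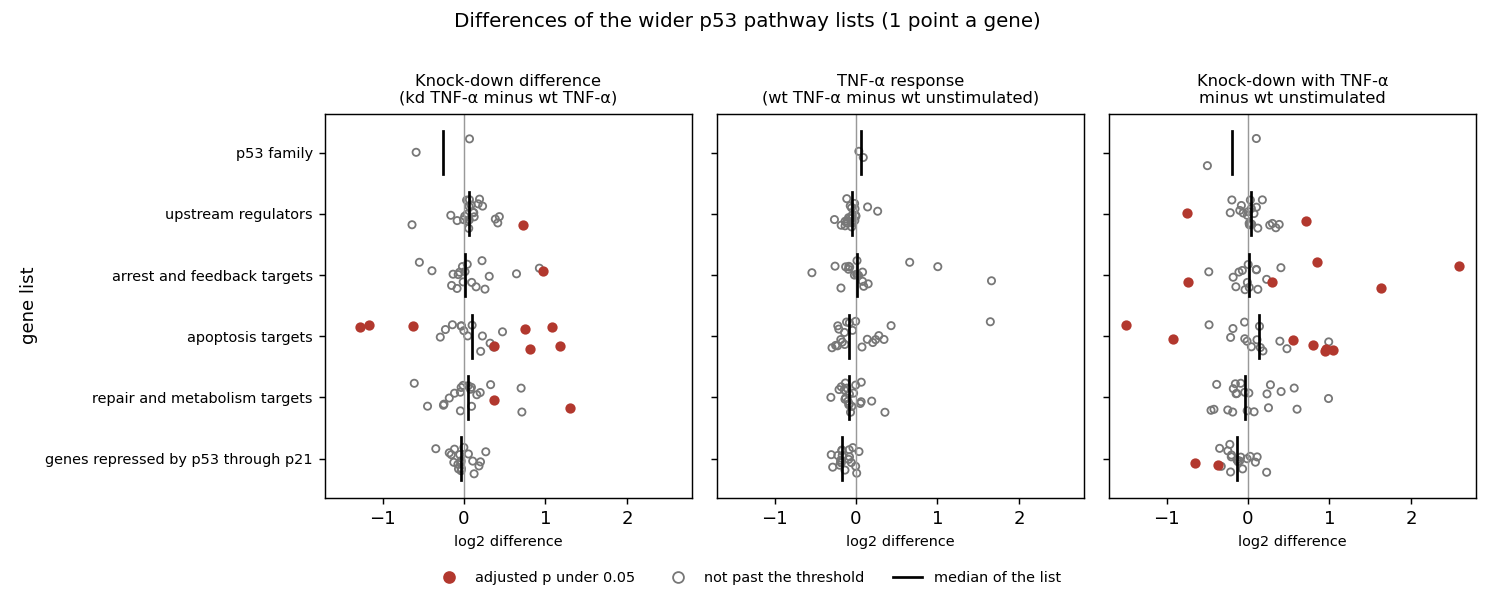
Log2 differences (horizontal axis) of 105 p53 pathway genes in 6 lists, 1 point a gene with vertical scatter for visibility only, for the same comparisons and in the same order as in the plot of the 8 targets. Filled points passed the threshold in limma and black bars are list medians. The 12 called genes on the left include 8 of the apoptosis list, and no point is filled in the middle panel.

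Among the relatives and regulators of p53, none of the 2 family members passed the threshold. *Trp63*, best known from epithelia, read 4.53, 4.39 and 4.58 on knock-down arrays, against 4.85, 5.10 and 5.32 on wild-type TNF-α arrays, a difference of -0.59 (adjusted p = 0.094, and 0.031 with the block). *Trp73* differed by 0.07. Of 23 upstream regulators, 1 rose in knock-down against wild-type TNF-α cells, where 5.96% of all probe sets were called. This was *Ppp1r13b*, the gene of Aspp1, which steers p53 towards apoptosis genes. It read 5.44, 5.77 and 5.18 on knock-down arrays and 4.74, 4.75 and 4.73 on wild-type TNF-α arrays, a difference of 0.72 (standard error 0.15, adjusted p = 0.024). *Atm*, the kinase that reports DNA breaks to p53, read 6.73, 6.66 and 6.39 on knock-down arrays, against 7.40, 7.32 and 6.98 on wild-type TNF-α arrays and 7.54, 7.51 and 6.97 on unstimulated ones. It fell against unstimulated cells (-0.75, adjusted p = 0.030), while its difference from wild-type TNF-α cells was -0.64 (adjusted p = 0.071, and 0.0024 with the block). *Chek2*, a kinase activated by Atm, differed by 0.43 (adjusted p = 0.086, and 0.020 with the block). Of genes picked for their role once their values had been seen, *Mdm4*, the Mdm2 partner that masks p53, averaged 6.94, 6.87 and 6.92 in knock-down, wild-type TNF-α and unstimulated cells, and *Cdkn2a*, the locus of p19Arf, 8.50, 8.50 and 8.61.

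The arrest and feedback list, 19 genes, held the targets with the largest TNF-α differences beside *Fas*. *Btg2*, an antiproliferative immediate-early gene, read 7.18, 6.89 and 7.82 on knock-down arrays, against 6.17, 5.995 and 6.94 on wild-type TNF-α arrays and 4.37, 4.68 and 5.07 on unstimulated ones. The TNF-α response was 1.66 (standard error 0.30), which missed the threshold (adjusted p = 0.13) and passed with the block (0.00184). Knock-down cells with TNF-α were above unstimulated wild-type cells by 2.59 (adjusted p = 0.00115) and above wild-type TNF-α cells by 0.93 (adjusted p = 0.13, and 0.00382 with the block). *Gadd45a*, a DNA damage gene that slows the cycle, read 7.85, 7.85 and 8.18 on knock-down arrays, 7.88, 7.91 and 8.54 on wild-type TNF-α arrays and 7.04, 6.92 and 7.36 on unstimulated ones. Both TNF-α groups lay above the unstimulated one, by 0.85 in knock-down cells (adjusted p = 0.025) and by 1.00 in wild-type cells (adjusted p = 0.16, and 0.00378 with the block). *Plk3*, a stress-responsive polo-like kinase, read 7.01, 7.17 and 7.75 on knock-down arrays, 6.27, 6.21 and 6.54 on wild-type TNF-α arrays and 5.87, 5.92 and 5.26 on unstimulated ones. It rose in knock-down cells by 0.97 over wild-type TNF-α cells (adjusted p = 0.036) and by 1.63 over unstimulated ones (adjusted p = 0.00255). Against unstimulated cells *Ptp4a3*, a phosphatase, rose by 0.29 and *Psrc1*, a spindle protein, fell by 0.73. *Ccng2*, a cyclin related to cyclin G1, differed by 0.64 between knock-down and wild-type TNF-α cells (adjusted p = 0.40, and 0.033 with the block).

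Of the 21 apoptosis targets, 5 rose and 3 fell in knock-down against wild-type TNF-α cells, where 5.96% of all probe sets were called. *Fas*, the death receptor and also an NF-κB target, read 6.55, 6.20 and 7.05 on knock-down arrays, 7.57, 7.49 and 8.25 on wild-type TNF-α arrays and 5.94, 6.11 and 6.30 on unstimulated ones. All stimulated wild-type arrays were above both other groups. The TNF-α response of 1.65 just missed the threshold (standard error 0.24, adjusted p = 0.059, and 0.00211 with the block), and *Fas* fell by 1.17 in knock-down cells (adjusted p = 0.024). *Dapk1*, a death-associated kinase, read 5.39, 5.22 and 4.99 on knock-down arrays, 6.38, 6.27 and 6.78 on wild-type TNF-α arrays and 6.85, 6.21 and 7.04 on unstimulated ones, and fell by 1.27 against wild-type TNF-α cells (adjusted p = 0.00908). *Casp6*, an executioner caspase, fell by 0.63 (adjusted p = 0.026). *Bcl2l11*, the gene of the BH3-only killer Bim and also a target of Foxo factors, read 7.25, 7.07 and 6.87 on knock-down arrays, 6.40, 6.18 and 6.34 on wild-type TNF-α arrays and 6.16, 5.997 and 6.15 on unstimulated ones, and rose by 0.75 (adjusted p = 0.00405). *Eda2r*, a TNF receptor family member, rose by 1.08 (adjusted p = 0.00729), *Dusp4*, a MAP kinase phosphatase, by 1.18 (adjusted p = 0.049), *Epha2*, an ephrin receptor, by 0.80 (adjusted p = 0.012), and *Ei24*, a protein of the endoplasmic reticulum, by 0.36 (adjusted p = 0.022). *Tnfrsf23*, a decoy receptor, differed by 0.47 (adjusted p = 0.21, and 0.014 with the block). Against unstimulated cells *Bid* rose by 0.79, *Tnfrsf10b*, the mouse TRAIL receptor, by 0.55, *Bcl2l11* by 0.96, *Eda2r* by 0.94 and *Epha2* by 1.05, while *Casp6* fell by 0.92 and *Dapk1* fell by 1.498. For *Bid* and *Tnfrsf10b* the TNF-α response of wild-type cells was 0.43 and 0.34. Their knock-down differences were 0.36 and 0.20, and none of these was called. The p53 killers *Bbc3* (Puma) and *Pmaip1* (Noxa), picked for their role once their values had been seen, read 4.77 to 4.95 and 3.49 to 3.90 on knock-down arrays, 4.73 to 4.85 and 3.83 to 4.44 on wild-type TNF-α arrays, and 4.40 to 4.77 and 3.59 to 3.87 on unstimulated ones, and were not called in any comparison.

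**Figure D4:**
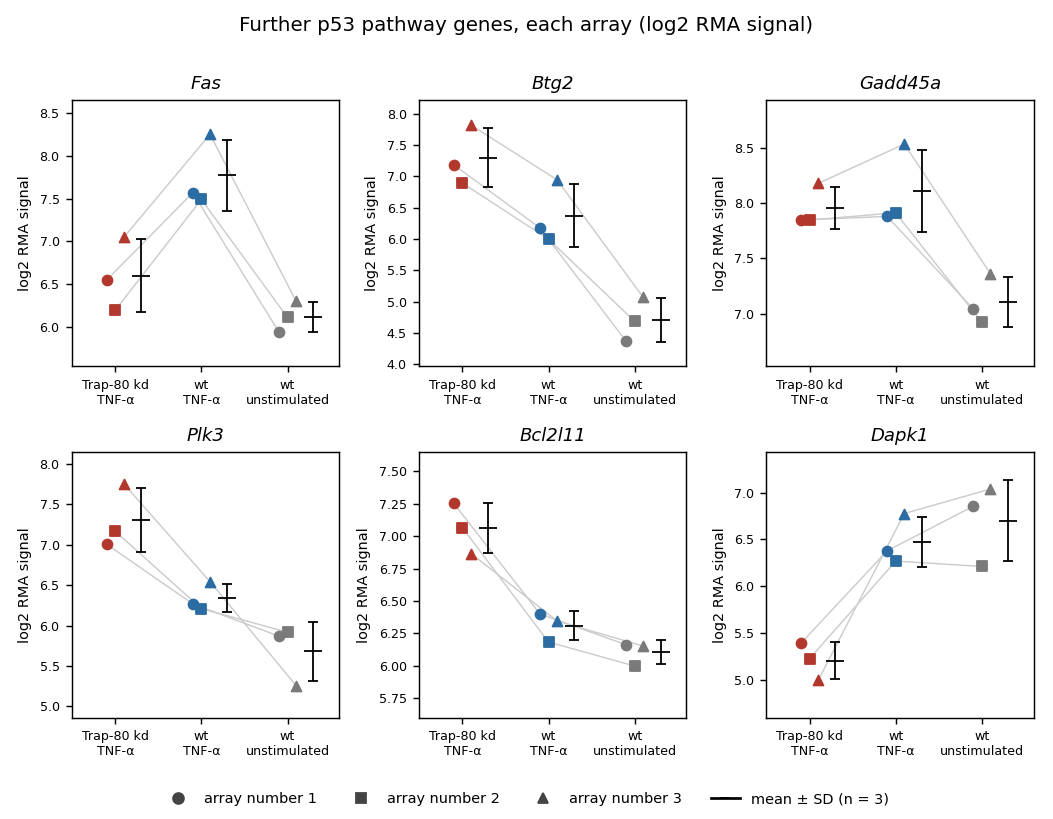
Log2 RMA signal (vertical axis, scaled per gene) of Fas, Btg2, Gadd45a, Plk3, Bcl2l11 and Dapk1 on each of the 9 arrays, by group from left to right (Trap-80 knock-down with TNF-α, wild type with TNF-α, wild type unstimulated), with symbols for the array number, grey lines between arrays of the same number and black bars for the mean ± SD of 3 arrays. Fas is highest in wild-type TNF-α cells (7.49 to 8.25), the knock-down arrays of Plk3 lie above all others (7.01 to 7.75) and those of Dapk1 below all others (4.99 to 5.39), whereas for Btg2 the lowest knock-down array lies below the highest wild-type TNF-α array (6.89 against 6.94).

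Of the 21 repair and metabolism targets, 2 rose in knock-down against wild-type TNF-α cells, where 5.96% of all probe sets were called. *Gpx1*, a glutathione peroxidase, read 9.54, 9.68 and 9.57 on knock-down arrays and 9.25, 9.15 and 9.29 on wild-type TNF-α arrays, a difference of 0.36 (adjusted p = 0.017). *Ephx1*, the microsomal epoxide hydrolase, read 8.15, 8.27 and 9.02 on knock-down arrays, 6.85, 6.91 and 7.78 on wild-type TNF-α arrays and 7.29, 7.31 and 7.87 on unstimulated ones, a difference of 1.30 (adjusted p = 0.037). *Pltp*, a phospholipid transfer protein, differed by 0.71 (adjusted p = 0.41) and *Ddit4*, an mTORC1 inhibitor that Atf4 drives as well, by 0.70 (adjusted p = 0.27), and with the block both passed (0.00229 and 0.020). The nucleotide excision repair genes *Ddb2* and *Xpc*, named for their role once their values had been seen, were not called in any comparison. The 19 cell-cycle genes that p53 represses through p21 had 0 calls between knock-down and wild-type TNF-α cells (at an unadjusted p under 0.05, 2 were higher and 2 lower, where 17.4% of all probe sets passed) and 0 for TNF-α (3 lower at an unadjusted p under 0.05, where 7.1% passed). Against unstimulated cells 2 fell in knock-down cells with TNF-α, where 8.25% of all probe sets were called. *Aurka*, a mitotic kinase, read 8.38, 8.20 and 8.51 on knock-down arrays, 8.77, 8.78 and 8.58 on wild-type TNF-α arrays and 9.07, 9.07 and 8.90 on unstimulated ones. Its difference from unstimulated cells was -0.65 (adjusted p = 0.0044), and that of *Bub1b*, a spindle checkpoint kinase, was -0.37 (adjusted p = 0.017). For *Aurka* and *Bub1b* the TNF-α response of wild-type cells was -0.30 and -0.19. The knock-down differences were -0.35 and -0.18, and none of these was called. The median difference of this list against unstimulated cells was -0.13, beside -0.01 over all probe sets. For the TNF-α response of wild-type cells it was -0.17 and for the knock-down difference -0.04, beside -0.02 over all probe sets in each.

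How far these calls rest on single arrays varied. Against wild-type TNF-α cells, *Bcl2l11*, *Dapk1* and *Eda2r* were called whichever of the 9 arrays was left out (largest adjusted p = 0.0215, 0.043 and 0.0385). *Epha2* was not called without knock-down array 2 or 3 (up to 0.0535), *Gpx1* without wild-type TNF-α array 1 or 2 or knock-down array 2 (up to 0.0623), *Ei24* without wild-type TNF-α or knock-down array 2 or 3 (up to 0.0816), *Fas* and *Casp6* without wild-type TNF-α array 1 or 3 or knock-down array 1 or 2 (up to 0.0842 and 0.0858), and *Ppp1r13b* without any wild-type TNF-α array or knock-down array 1 or 2 (up to 0.0855). *Plk3*, *Ephx1* and *Dusp4* were not called without any of 7, 7 and 8 of the arrays (up to 0.129, 0.143 and 0.165). Against unstimulated cells, *Btg2*, *Plk3*, *Bid*, *Bcl2l11*, *Eda2r*, *Epha2*, *Casp6*, *Dapk1* and *Aurka* were called whichever array was left out. *Bub1b* was not called without unstimulated or knock-down array 1 (up to 0.052), *Ppp1r13b* without unstimulated array 1 or 3 or knock-down array 1 or 2 (up to 0.0866), *Gadd45a* and *Atm* without unstimulated array 1 or 2 or any knock-down array (up to 0.0934 and 0.116), and *Psrc1* without unstimulated array 2, wild-type TNF-α array 1 or knock-down array 1 or 2 (up to 0.0947). *Tnfrsf10b* and *Ptp4a3* were not called without any of 7 and 8 of the arrays (up to 0.108 and 0.136).

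Other settings also ended some of these calls. With all 35557 probe sets tested, 6 genes were no longer called against wild-type TNF-α cells (*Casp6*, *Dusp4*, *Ephx1*, *Fas*, *Plk3* and *Ppp1r13b*, adjusted p = 0.0597 to 0.112) and 5 against unstimulated ones (*Atm*, *Gadd45a*, *Psrc1*, *Ptp4a3* and *Tnfrsf10b*, 0.0564 to 0.075). With only the 6 arrays compared, 5 were lost against wild-type TNF-α cells (*Casp6*, *Dusp4*, *Ephx1*, *Fas* and *Plk3*, 0.0515 to 0.0946) and 5 against unstimulated ones (*Atm*, *Bub1b*, *Ppp1r13b*, *Psrc1* and *Ptp4a3*, 0.0511 to 0.0826). Without the arrays numbered 3, *Dapk1* differed from wild-type TNF-α cells by -1.01 (adjusted p = 0.0621), and *Ei24*, *Gpx1* and *Ppp1r13b* were lost there too (0.114, 0.0579 and 0.0504), as were *Ppp1r13b*, *Ptp4a3* and *Tnfrsf10b* against unstimulated cells (0.0502, 0.11 and 0.0652). *Ptp4a3* was lost with a trended variance prior as well (0.0622). Against wild-type TNF-α cells *Bcl2l11* and *Eda2r* were called under every setting in which they had a value. Against unstimulated cells *Btg2*, *Plk3*, *Bid*, *Bcl2l11*, *Eda2r*, *Epha2*, *Casp6*, *Dapk1* and *Aurka* were. *Eda2r* had no value where dim probe sets were left out, since its mean over the 9 arrays was 4.50, below the median of 5.02.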

How the data were processed

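Total RNA of 9 samples, 3 in each of 3 groups, was hybridised to Affymetrix Mouse Gene ST arrays. The deposited values are log2 signals that the authors background-corrected, normalised and summarised per probe set by RMA (version not given in the sources used here). They were used as deposited. The number of arrays limits the precision. The platform's annotation gave gene names, with 1 symbol for 21789 of 35557 probe sets, several for 1621 and none for 12147. A gene with several probe sets was represented by the brightest.

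The 23410 probe sets with a gene entered 1 linear model with a mean for each of the 3 groups and moderated variances (lmFit and eBayes of limma 3.58.1 under R 4.3.3). The prior had 3.2 degrees of freedom. The script was tested on simulated data first. Benjamini-Hochberg adjustment covered all probe sets tested, with a threshold of 0.05. *Med17* also had an exact permutation test. The labels call the arrays biological replicates without saying what was repeated, so p-values measure the spread between these samples.

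Deviations from the group mean correlated between arrays of the same number (r = 0.11 to 0.403 for TNF-α and 0.147 to 0.465 for the knock-down), and less clearly between knock-down and unstimulated arrays (0.00218 to 0.221). Some arrays of different numbers correlated as much (knock-down 1 with wild-type TNF-α 2 at 0.16, wild-type TNF-α 1 with unstimulated 2 at 0.249), so the pairing, which comes from these values, is uncertain. The fit was repeated with the number as a block.

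Members, lists and tests were chosen with earlier results of these data known. Named were all members, every list gene that passed the threshold, and from each list some of up to 2 with the largest difference that did not. Genes most like *Trp53* and *Cdkn1a* could not be sought. Of the lists, 12 genes did not match a probe set of their own. Motifs were searched exactly on both strands of RefSeq promoters (GRCm38.p6). Alternatives were median centring, all probe sets, no dim probe sets, 6 arrays, a trended prior, the block, the mean of a gene's probe sets and each array left out.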

Additional observations from a re-analysis of the deposited data

How the results depend on the processing

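Of the 8 measured targets, 0 were called for TNF-α under every alternative run. In each knock-down comparison 1 was called with dim probe sets left out (*Perp*), 2 with the replicate block and 2 without the arrays numbered 3 (*Sesn2* and *Perp*), and 0 to 1 when 1 array was left out. The replicate block changed no other call among the 8. Without the arrays numbered 3, chosen after seeing the data, *Trp53inp1* turned to 0.012 (knock-down difference), 0.073 (knock-down against unstimulated) and 0.061 (TNF-α) and *Zmat3* to -0.061 (knock-down difference), and median centring turned the TNF-α response of *Perp* to -0.051. None of these was called. With single arrays left out, differences near 0 changed sign, for the knock-down difference in *Trp53inp1* (-0.35 to 0.21), *Sesn1* (-0.15 to 0.043) and *Zmat3* (-0.096 to 0.12), for TNF-α in *Trp53inp1* (-0.43 to 0.37), *Sesn2* (-0.30 to 0.082) and *Perp* (-0.092 to 0.13), and against unstimulated cells in *Trp53inp1* (-0.51 to 0.27), *Ccng1* (-0.016 to 0.044) and *Phlda3* (-0.050 to 0.023). Over all probe sets, TNF-α calls numbered 27, and 13 with all probe sets tested, 41 without dim ones, 9 with only 6 arrays, 55 with the block and 9 to 23 with 1 array left out. Knock-down calls numbered 1395, and 2108 with the block and 738 to 1596 with 1 array left out, and 56.3% of them were higher, against 68% after centring. Against unstimulated cells they numbered 1932, and 1147 to 1944 with 1 array left out. The cause was not tested. The difference of *Med17* stayed within -1.70 to -1.60 (knock-down difference) and -1.85 to -1.74 (against unstimulated) with 1 array left out. With 3 arrays a group and a median standard error of 0.10, small differences were not detectable. For TNF-α, where 27 probe sets were called, some large differences were not called either. Among them were *Btg2* (1.66, limma adjusted p = 0.129), *Fas* (1.65, 0.0586) and *Gadd45a* (1.00, 0.162). Groups of 3 were not searched for single outlying arrays.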
